A study of Mus musculus with 9 samples.

Results

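CXC and CX3C chemokine ligands are small secreted or membrane-bound proteins that steer leukocytes, microglia and neural precursors. The genes described are Cxcl1, Cxcl2, Cxcl9, Cxcl10, Cxcl12, Cxcl14, Cxcl16 and Cx3cl1, taken by name, 8 of 38911 gene symbols to which a deposited table of RefSeq transcript counts was summed. The table holds 9 hippocampus libraries of adult specific-pathogen-free BALB/c mice, made from RNA depleted of ribosomal RNA. In 3 libraries, labelled CCLF, the mice had cecal ligation and puncture (CLP) and flavonoids of Cuscuta chinensis (CCLF) at 200 mg/kg. CLP is a surgical model of abdominal sepsis. Another 3, labelled SAE, had CLP only, and 3, labelled CTL, had a sham operation. CLP is shared by the CCLF and SAE mice. The labels give no time of collection, route of dosing or perfusion. The series text gives 3 mice to a group and the labels number the libraries as biological duplications, without saying that each is a different mouse, so p-values measure the spread between these libraries.

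Cxcl1 and Cxcl2 draw neutrophils through the receptor Cxcr2 and are switched on by NF-kB after bacterial products, interleukin-1 or tumour necrosis factor. Cxcl9 and Cxcl10 draw T and NK cells through Cxcr3 and answer to interferons, Cxcl10 also to NF-kB. Cxcl12, Cxcl14 and Cx3cl1 are made in the resting brain: Cxcl12 by endothelium, meninges and some neurons, Cxcl14 by certain interneurons, and Cx3cl1, a membrane-bound ligand that can be shed, by neurons, with its receptor Cx3cr1 on microglia. Cxcl16 is likewise membrane-bound, and its receptor is Cxcr6.

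The direction of the inflammatory genes went against the labels. Lcn2, an acute-phase gene that brain tissue raises in systemic inflammation, had 13, 14 and 6 counts in the libraries labelled SAE, against 13816, 14822 and 13246 in those labelled CTL. Whether the column names match the operations was not tested, so every direction below is that of libraries under their deposited labels, and all of the SAE and CTL comparison rests on them. Library totals ran from 4626519 to 4895474 counts. Slc17a7, a marker of hippocampal excitatory neurons, had 26508 to 30405 counts in every library, whereas P2ry12, Pecam1 and Pdgfrb, textbook markers of microglia, endothelium and pericytes, were listed at 0 throughout. Among coding genes with a single RefSeq row 43.7% averaged at least 10 counts, against 22.4% of those with several rows, so counts of genes with several rows may not cover the whole gene. Cxcl1, Cxcl2, Cxcl9, Cxcl10 and Cx3cl1 have a single row each, Cxcl12 has 3, and Cxcl14 and Cxcl16 have 4 each.

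The start regions of the ligand genes were searched for motifs because 4 of them were lower together in the libraries labelled SAE. RefSeq promoters (GRCm38.p6, the build of the sequence table, while that behind the counts is not given) were matched for 7 of 8 genes. The stretches below end at the base before the RefSeq transcript start, except that of Cxcl10, which ends 91 bases before it. They lie at chr5:90891115-90891244 on the plus strand for Cxcl1, chr5:90903769-90903898 on the plus strand for Cxcl2, chr5:92348980-92349109 on the minus strand for Cxcl10 and chr8:94772050-94772179 on the plus strand for Cx3cl1, and each is written 5′ to 3′ on its gene's strand. Capitals mark matches to the NF-kB consensus (kB) in Cxcl1, Cxcl2 and Cxcl10, to the interferon-stimulated response element (ISRE, GAAA and GAAA with a gap of 2 bases) at the left of Cxcl10, and to the TATA box letters TATAAA in Cx3cl1.
Cxcl1: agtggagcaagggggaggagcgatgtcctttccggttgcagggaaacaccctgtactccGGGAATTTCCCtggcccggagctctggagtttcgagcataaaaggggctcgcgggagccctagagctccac
Cxcl2: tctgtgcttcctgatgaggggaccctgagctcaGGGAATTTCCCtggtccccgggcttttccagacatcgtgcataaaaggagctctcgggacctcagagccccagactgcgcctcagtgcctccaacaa
Cxcl10: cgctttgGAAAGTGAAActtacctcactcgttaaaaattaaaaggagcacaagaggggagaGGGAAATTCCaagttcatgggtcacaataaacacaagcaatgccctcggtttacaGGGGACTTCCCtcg
Cx3cl1: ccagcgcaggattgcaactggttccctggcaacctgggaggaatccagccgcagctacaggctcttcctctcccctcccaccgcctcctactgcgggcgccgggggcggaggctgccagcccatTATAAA

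Cxcl1 and Cxcl2 carried the same stretch GGGAATTTCCC, in which overlapping words match the kB consensus on opposite strands, with its first base 71 and 97 bases before the start. Cxcl10 had kB matches that begin 159, 104 and 103 bases before the start, the last of these overlapping, and an ISRE match that begins 213 bases before it. In the 250 bases before the start, searched on both strands, 7.25% of 32851 promoters held a kB match, 2.98% an ISRE match, 7.02% a match to the interferon-gamma-activated site TTCNNNGAA (GAS) and 12.4% a TATAAA. Of the other promoters matched, Cxcl9 held only TATAAA, Cxcl12 none of the 4 motifs, and Cxcl14 an ISRE and a GAS match. These are matches of letters and not measured binding sites, and no match says only that the letters are not in the window.

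Cxcl1 (chr5:90891241-90893115) and Cxcl2 (chr5:90903871-90905938) are neighbours on the plus strand of chromosome 5, and Cxcl9 (chr5:92321347-92328079) and Cxcl10 (chr5:92346638-92348889) are a second pair on its minus strand, by GENCODE on GRCm38. Cxcl12 lies at chr6:117168535-117181367 and Cx3cl1 at chr8:94772009-94782427, both on the plus strand, and Cxcl14 at chr13:56288643-56296551 and Cxcl16 at chr11:70453983-70459984, both on the minus strand. These GENCODE starts differ from the RefSeq starts for some genes. By GENCODE the Cx3cl1 stretch above lies wholly inside the gene, and those of Cxcl1 and Cxcl2 run past the gene start. The motif distances thus hold for the RefSeq starts only.

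**Figure D1:**
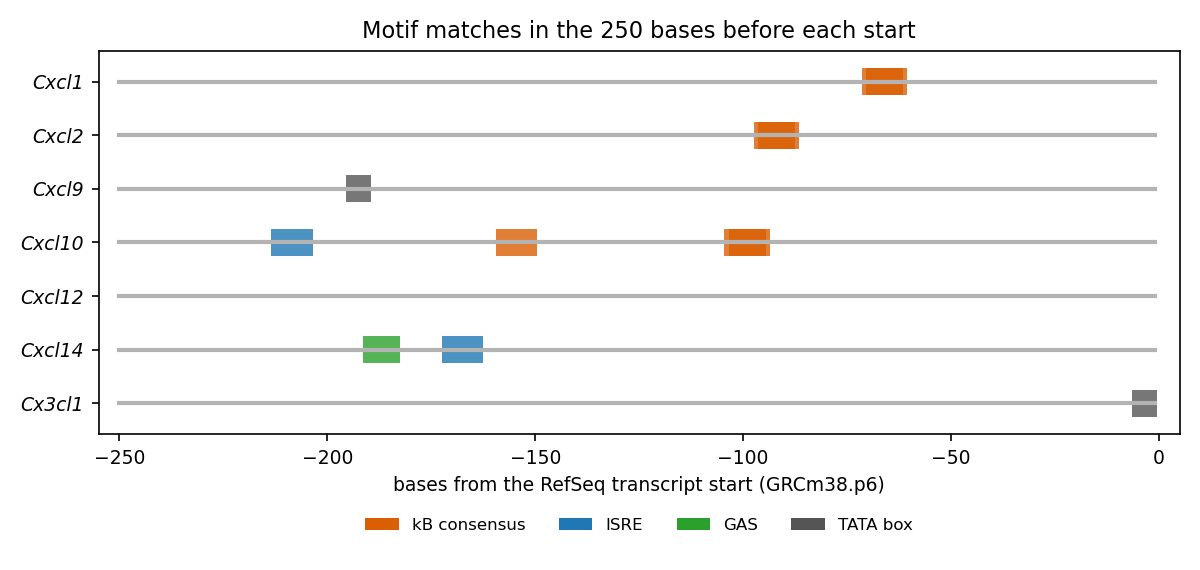
Motif matches in the 250 bases before the RefSeq start of 7 ligand genes, with distance from the start in bases on the x axis and a coloured box for each match. The kB boxes lie on Cxcl1, Cxcl2 and Cxcl10, and the Cxcl12 line has no box.

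Of the 8 ligand genes, 6 passed the filter on low counts. In a fit of the 3 libraries labelled SAE and the 3 labelled CTL with edgeR's quasi-likelihood test, Cxcl1, Cxcl2, Cxcl9 and Cxcl10 were called lower in SAE and Cxcl12 and Cx3cl1 higher, at an adjusted p under 0.05. The background is wide: of 8213 genes tested, 23.9% were called lower and 23.7% higher in SAE, 47.6% in all. The 4 lower genes passed the filter through their CTL counts and so had to differ, and their number is not support for a pattern. In bulk tissue, fewer cells that make a transcript and less of it per cell cannot be told apart.

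**Figure D2:**
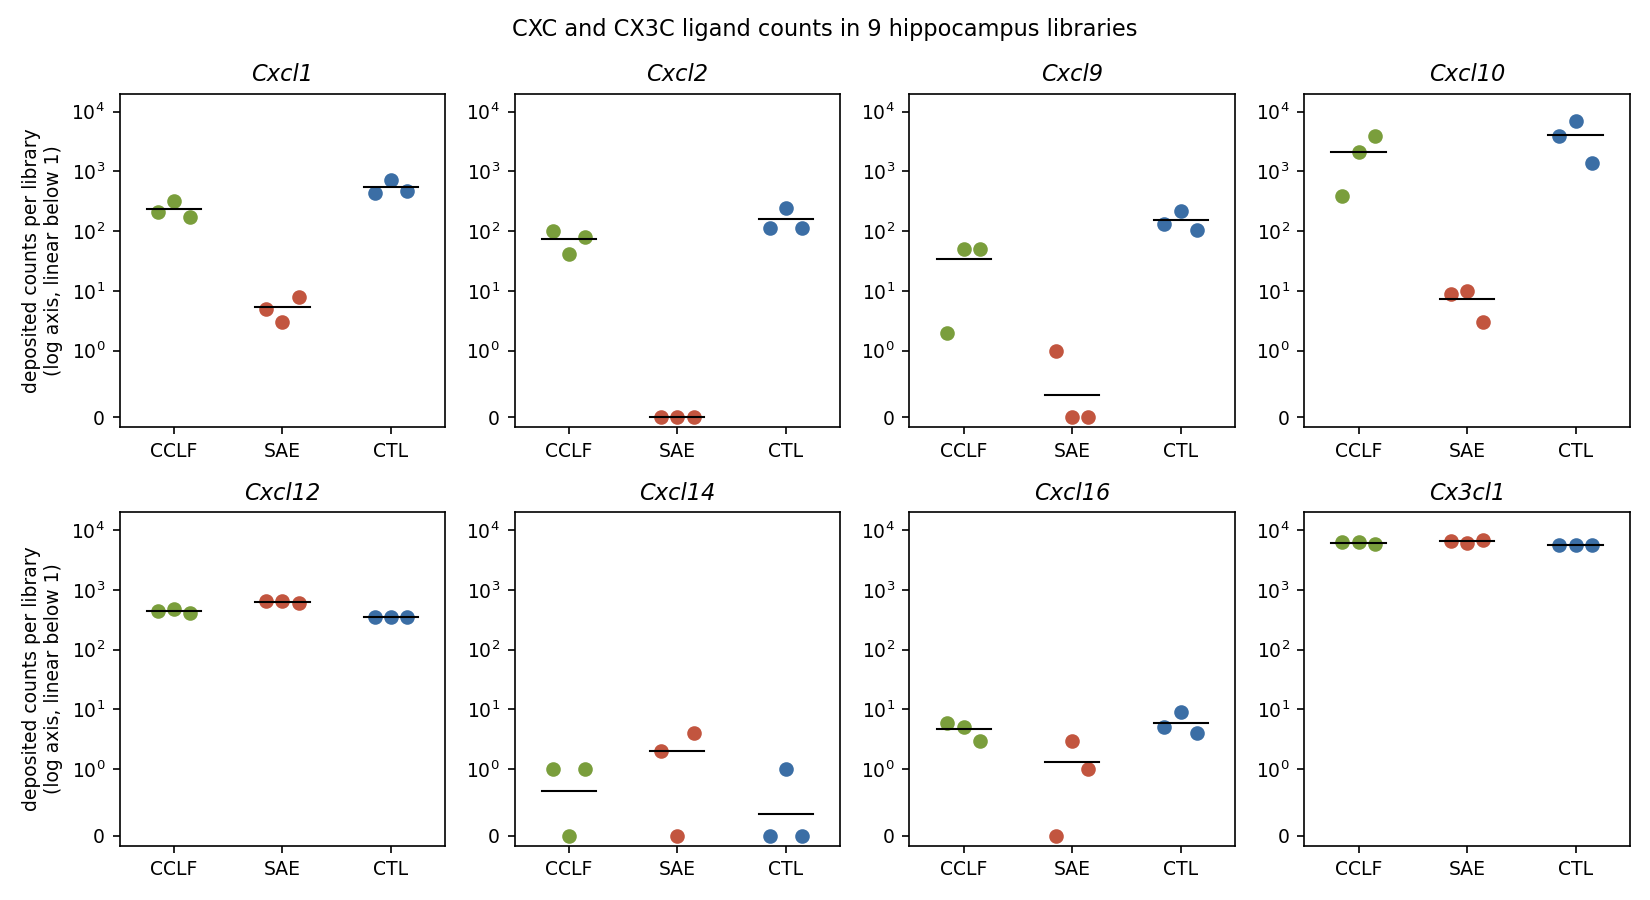
Deposited counts of the 8 ligand genes, a point for each library and a line for the mean of 3, on a log axis that is linear below 1. The SAE points of Cxcl1, Cxcl2, Cxcl9 and Cxcl10 lie at 10 counts or fewer and below every CTL point, whereas Cxcl12 and Cx3cl1 stay within a narrow band in all 3 groups.

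Among the neutrophil-attracting ligands, Cxcl1 had 5, 3 and 8 counts in the libraries labelled SAE, against 435, 708 and 469 in those labelled CTL. Every SAE library was below every CTL library, as in 27.1% of tested genes. On the CPM scale, which divides counts by library size and corrects for composition, it averaged 1.12 ± 0.508 in SAE and 114 ± 29.7 in CTL (SD, n = 3 each), a log2 fold of −6.63 ± 0.35 (SE, adjusted p = 2.7e-06, edgeR).

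Cxcl2, its close paralog, had 0 counts in all 3 libraries labelled SAE, against 114, 248 and 114 in those labelled CTL. It averaged 33.5 ± 15.9 CPM in CTL (SD, n = 3) and was at least 156-fold lower in SAE, taking 3 counts over the SAE group as its floor (adjusted p = 0.0229, edgeR). Without CTL replicate 1 its adjusted p was 0.0521 with edgeR, in a range of 3.74e-22 to 0.0521 over the alternatives. Cxcl2 shares sequence with Cxcl3: of its 1079 words of 31 bases, 999 occur in no other of the matched transcripts, and all 923 words of Cxcl1 are its own.

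The summed level of 8 markers of neutrophils, which carry Cxcr2, was lower in SAE than in CTL, as were Cxcl1 and Cxcl2. It was 1.45 to 3.61 CPM in libraries labelled SAE and 48.6 to 71.7 CPM in those labelled CTL. Most of the CTL sum came from S100a8 and Ngp, which averaged 36 and 14.1 CPM there. Only these 2 were tested, and both passed the filter through their CTL counts and so had to differ. For Camp the SAE and CTL libraries overlapped. S100a8, which encodes a calcium-binding protein, had 8, 2 and 2 counts in SAE, against 157, 176 and 177 in CTL (log2 fold −5.38 ± 0.27, adjusted p = 3.33e-14, edgeR). Within CTL, Cxcl1 and Cxcl2 were highest in replicate 2. There Ngp, with 55, 39 and 106 counts, was lowest, and Camp, with 2, 5 and 4, was highest. Ly6g, S100a9 and Cxcr2 itself were listed at 0 in every library. The part of neutrophils in the Cxcl1 and Cxcl2 levels was not tested.

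Among the interferon-responsive ligands, Cxcl10 had the most counts. It had 9, 10 and 3 counts in the libraries labelled SAE, against 3932, 6980 and 1396 in those labelled CTL. The groups did not overlap, and the highest CTL library was 5.01 times the lowest in CPM. Cxcl10 averaged 1.56 ± 0.821 CPM in SAE and 869 ± 583 CPM in CTL (SD, n = 3 each), a log2 fold of −9.12 ± 1.29 (SE, adjusted p = 0.0053, edgeR). Art3, the gene that overlaps Cxcl10 on the opposite strand, had 0 counts in every library.

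Cxcl9 had 1, 0 and 0 counts in the libraries labelled SAE, against 132, 220 and 105 in those labelled CTL. Its level was 450 times higher in CTL by the ratio of summed counts, with a 95% counting interval of 80.3 to 17808 that covers counting error only (adjusted p = 3.15e-06, edgeR). CTL replicate 2 was the highest CTL library for Cxcl1, Cxcl2, Cxcl9 and Cxcl10 alike, and replicate 3 the lowest for Cxcl9 and Cxcl10. Of 8 markers of T, B and NK cells, which include the bearers of Cxcr3, none could be tested. Their summed level was 0.827 to 2.12 CPM in SAE and 0.209 to 0.833 CPM in CTL. Most of the SAE sum was the B-cell gene Cd79a, with 8, 7 and 3 counts in SAE, against 1, 1 and 0 in CTL. The other 7 had at most 2 counts in any library. Nkg7 had 1, 0 and 1 in SAE, against 2, 0 and 2 in CTL, and Cd3e, Cd8a, Cd4 and Ncr1 were at 0 in all 9 libraries.

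Summed over the 9 libraries, Cx3cl1, the neuronal fractalkine gene, was the most counted of the ligands, and it differed little between SAE and CTL. It had 6549, 6048 and 6690 counts in the libraries labelled SAE, against 5515, 5535 and 5530 in those labelled CTL. The groups did not overlap, as held for 28.6% of tested genes with SAE the higher group. It averaged 1357 ± 51.4 CPM in SAE and 1171 ± 29.5 CPM in CTL (SD, n = 3 each), a log2 fold of 0.2 ± 0.04 (SE, adjusted p = 0.000118, edgeR). Markers of excitatory neurons also differed: their summed level was 7080 to 7223 CPM in SAE and 6178 to 6433 CPM in CTL, Slc17a7 had a log2 fold of 0.16 ± 0.03 Neurod6 of 0.31 ± 0.05 and Zbtb18 of 0.82 ± 0.21, while Neurod2 was lower at −0.35 ± 0.13. Their part in the Cx3cl1 level was not tested.

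Cxcl12, which encodes stromal-derived factor, had 643, 654 and 609 counts in the libraries labelled SAE, against 357, 346 and 346 in those labelled CTL. All SAE libraries were above all CTL libraries, with little spread within either group. It averaged 134 ± 7.41 CPM in SAE and 74.1 ± 3.37 CPM in CTL (SD, n = 3 each), a log2 fold of 0.85 ± 0.07 (SE, adjusted p = 1.37e-09, edgeR).

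The rise in Cxcl12 was unequal between its transcript rows. The row matched to the 119-residue form (NM_001012477.2) had 316, 324 and 296 counts in SAE, against 101, 99 and 71 in CTL. The row of the 89-residue form (NM_021704.3) had 327, 330 and 313 counts in SAE, against 256, 247 and 275 in CTL. In a fit of transcript rows, where 47.4% of 8539 were called, the log2 folds were 1.77 ± 0.13 (SE, adjusted p = 1.56e-11, edgeR) for the 119-residue form and 0.3 ± 0.09 (adjusted p = 0.00806, edgeR) for the 89-residue form. The 119-residue row held 49.1 ± 0.47% of Cxcl12 counts in SAE and 25.8 ± 4.58% in CTL (SD, n = 3 each), with 35.5 ± 2.2% in CCLF. The difference in transcript use passed edgeR's diffSpliceDGE (adjusted p = 9.47e-10, with 163 of 543 genes, 30.0%, called). A row of the 93-residue form had 0 counts throughout. Of its 3102 words of 31 bases only 29 occur in no other matched transcript, against 2527 of 5597 for the 119-residue row and 1529 of 1848 for the 89-residue row. Reads of the 93-residue form can thus hardly be told from those of the other rows, and its 0 does not show its absence. The transcript tests were chosen after the counts were seen.

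**Figure D3:**
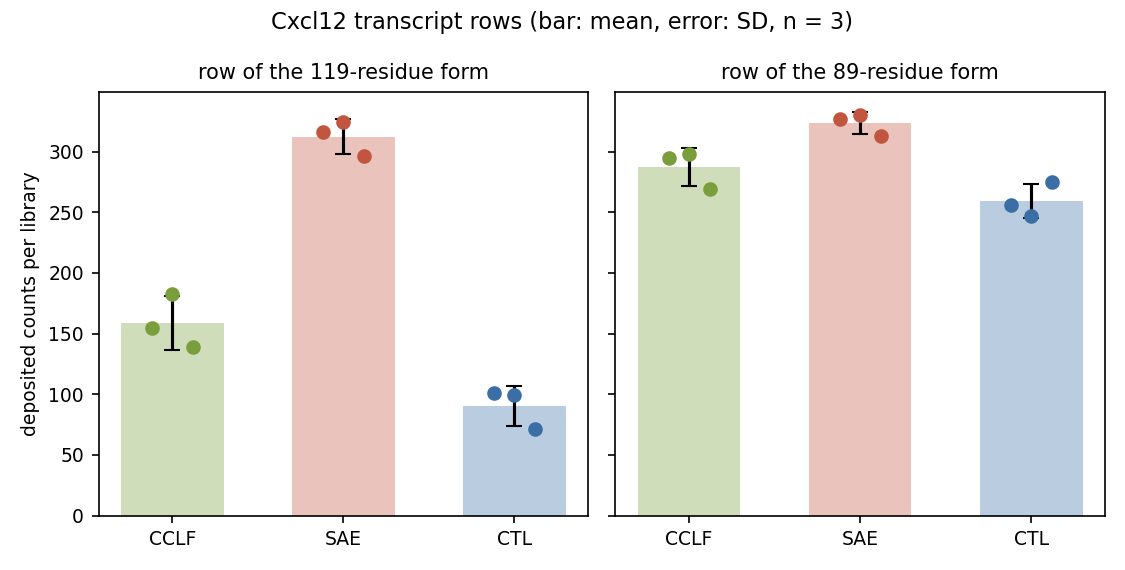
Counts of the 2 Cxcl12 transcript rows with reads, with bars for the mean, error bars for the SD (n = 3) and points for single libraries. The 119-residue row stands at 296 to 324 counts in SAE and 71 to 101 in CTL with CCLF between them, and the 89-residue row spans 247 to 330 counts over all libraries.

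Markers of cells known to make Cxcl12 also differed. The summed level of 7 endothelial markers was 423 to 446 CPM in SAE and 295 to 337 CPM in CTL. Within that list Flt1 (log2 fold 0.6 ± 0.07) and Itm2a (2.22 ± 0.08) were higher, and Cldn5, a tight junction gene, was lower (−1.06 ± 0.08), each at an adjusted p under 0.05. Pecam1 was at 0. Mural cell markers summed to 477 to 565 CPM in SAE and 311 to 337 CPM in CTL, and meningeal markers to 126 to 214 CPM and 90.2 to 93.5 CPM in SAE and CTL, with 4 of 6 meningeal markers higher, where 23.7% of all tested genes were, and the mural markers Pdgfrb, Kcnj8 and Abcc9 at 0. Their part in the Cxcl12 level was not tested.

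Cxcl14 and Cxcl16 were too low to test. Cxcl14 had 2, 0 and 4 counts in SAE, against 0, 1 and 0 in CTL, a ratio of 6.09 with a 95% counting interval of 0.739 to 280.3 that includes no difference. All of them fell on a predicted transcript row, and the curated row was at 0. Cxcl16 had 0, 3 and 1 counts in SAE, against 5, 9 and 4 in CTL, all on rows of non-coding transcripts, with its protein-coding row at 0 and no overlap between the groups. With no filter edgeR gave an adjusted p of 0.372 for Cxcl14 and 0.0652 for Cxcl16. Cxcl16 overlaps Zmynd15 on the opposite strand, and Zmynd15 had 1 count in a single SAE library and 0 elsewhere.

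The induced and constitutive ligands were summed separately in each library. Cxcl1, Cxcl2, Cxcl9 and Cxcl10 summed to 15, 13 and 11 counts in libraries labelled SAE, against 4613, 8156 and 2084 in those labelled CTL. Cxcl12 and Cx3cl1 summed to 7192, 6702 and 7299 counts in SAE, against 5872, 5881 and 5876 in CTL. The induced sum thus lay below the constitutive sum in all SAE libraries and above it in CTL replicate 2 alone of the CTL libraries. The split into induced and constitutive ligands follows general knowledge and was made with results known, and it was not tested as a score.

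Levels of different genes were compared per kilobase of the matched GENCODE transcript. In SAE the order of mean levels was Cx3cl1 (409 ± 15.5 CPM per kilobase), Cxcl12 (48.1 ± 2.44), Cxcl10 (1.42 ± 0.75), Cxcl1 (1.17 ± 0.533), Cxcl9 (0.0245 ± 0.0424) and Cxcl2 at 0 (SD, n = 3 each). In CTL it was Cxcl10 (794 ± 533 CPM per kilobase), Cx3cl1 (353 ± 8.91), Cxcl1 (119 ± 31.2), Cxcl12 (32.7 ± 1.35), Cxcl2 (30.2 ± 14.3) and Cxcl9 (11.1 ± 4.28). Cxcl10 and Cxcl1 as well as Cxcl9 and Cxcl2 in SAE, and in CTL Cxcl10 and Cx3cl1 as well as Cxcl12 and Cxcl2, differed by less than their spread. The Cxcl12 level is a sum over rows that share sequence.

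The libraries labelled CCLF are described without a test. The share of all genes with CCLF apart from SAE or CTL was not counted, so these positions may be common. Cxcl1 had 206, 323 and 172 counts in CCLF, against 5, 3 and 8 in SAE, and Cxcl2 had 102, 42 and 79 in CCLF, against 0 in each SAE library. For both, every CCLF library was above all SAE libraries and below all CTL libraries. Cxcl10 had 383, 2117 and 3919 counts in CCLF, above all SAE libraries, with only replicate 1 below every CTL library. Its highest CCLF library was 10.2 times its lowest in CPM.

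Cxcl9 had 2, 51 and 50 counts in CCLF, against 1, 0 and 0 in SAE, and also lay between the SAE and CTL libraries throughout. CCLF replicate 1 was lowest for Cxcl9 and Cxcl10 and highest for Cxcl2. Other genes did not share 1 order of the CCLF libraries. Tnfrsf1a, a tumour necrosis factor receptor gene, had 210, 677 and 872 counts, lowest in replicate 1. Zfp36, a gene on the NF-kB side, had 322, 202 and 126, highest in replicate 1, and Cd14 had 98, 135 and 77, lowest in replicate 3. Of the tested neutrophil markers, S100a8 had 37, 145 and 167 counts, lowest in replicate 1, and Ngp had 23, 43 and 18, lowest in replicate 3. The neutrophil list was at 15.04 to 44.3 CPM in CCLF. Cxcl12 had 450, 481 and 408 counts in CCLF, below all SAE and above all CTL libraries. Cx3cl1 had 6348, 6420 and 5737 counts in CCLF, above all CTL libraries in CPM and overlapping SAE. Cxcl14 had 1, 0 and 1 counts and Cxcl16 had 6, 5 and 3 in CCLF. The induced ligands summed to 693, 2533 and 4220 counts in CCLF and the constitutive pair to 6798, 6901 and 6145.

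Only 1 of 9 other CXC and XC ligands had enough counts to be tested. Cxcl5, another ligand of Cxcr2, had 10, 14 and 11 counts in SAE, against 33, 76 and 48 in CTL (log2 fold −2.16 ± 0.31, adjusted p = 4.2e-06, edgeR). The B-cell attractant Cxcl13 had 0 counts in SAE, against 8, 11 and 12 in CTL, and was at least 10.2-fold lower in SAE. Cxcl3 and Cxcl11 were also at 0 in SAE and summed to 17 and 13 counts in CTL, so they were at least 5.58-fold and 4.27-fold lower. Pf4, the platelet factor gene, had 9, 14 and 7 counts in SAE, against 4, 14 and 9 in CTL, and the groups overlapped.

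Receptors were nearly unreadable in this table, where only Cx3cr1 and the scavenger Gpr182 of 12 were tested. Cx3cr1, the receptor of Cx3cl1, was higher: it had 57, 81 and 80 counts in SAE, against 24, 7 and 29 in CTL (log2 fold 1.84 ± 0.32, adjusted p = 0.000324, edgeR). Cx3cr1 is also a microglial marker, and the whole marker list moved with it, at 556 to 588 CPM in SAE and 319 to 391 CPM in CTL, and its part was not tested. All 5 markers tested, Cx3cr1 among them, were higher, where 23.7% of all tested genes were, but Siglech passed the filter through its SAE counts and so had to differ, and P2ry12 was at 0. Gpr182, a scavenger of CXC ligands, had 54, 56 and 39 counts in SAE, against 84, 67 and 68 in CTL (log2 fold −0.57 ± 0.19, adjusted p = 0.0175, edgeR). The Gpr182 call was lost with DESeq2's Wald test (adjusted p = 0.06), without SAE replicate 3 (adjusted p = 0.108, edgeR) and without CTL replicate 1 (adjusted p = 0.117, edgeR), in a range of 0.0146 to 0.117. Cxcr2 was at 0 in every library, Cxcr3 had 0 to 2 counts, Cxcr4 0 to 1, Ackr3 0 to 3 and Cxcr6 0 to 5. The list of enzymes that shed or trim ligands also holds Rhbdf1, a rhomboid-like partner of the sheddase Adam17. Rhbdf1 had 16, 11 and 10 counts in SAE, against 42, 45 and 47 in CTL (log2 fold −1.86 ± 0.27, adjusted p = 4.17e-06, edgeR). It was not among the genes tested with curated rows alone. Dpp4, which trims Cxcl9, Cxcl10 and Cxcl12, had a log2 fold of −0.32 ± 0.4 (adjusted p = 0.54, edgeR), and Adam10 and Adam17 had 0 to 3 counts.

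Genes of the signals that act on the induced ligands were counted by list. On the NF-kB and cytokine side 7 of 13 tested genes were lower in SAE and 1 higher, of 21 in the list, where 23.9% of all tested genes were lower and 23.7% higher, with a median log2 fold of −1.23 against 0.0049 over all tested genes. Tnfrsf1a had 202, 191 and 204 counts in SAE, against 1077, 1158 and 904 in CTL (log2 fold −2.41 ± 0.09, adjusted p = 3e-14, edgeR). Zfp36, which encodes a protein that destabilises chemokine mRNA, had 86, 67 and 74 counts in SAE, against 451, 587 and 436 in CTL (−2.71 ± 0.13, adjusted p = 5.61e-14, edgeR). The adaptor gene Myd88 was lower (−1.83 ± 0.14, adjusted p = 3.72e-10, edgeR), and the kinase gene Ikbkb was higher (1.67 ± 0.23, adjusted p = 2.23e-06, edgeR). Tlr4 (−1.23 ± 0.2) and Cd14 (−3.11 ± 0.37), which pass the signal on, were also called lower. Nfkbia (−2.11 ± 0.28) and Zc3h12a (−3.52 ± 0.34) were called lower too, and like Zfp36 they damp the signal or its products. The list thus mixes genes that pass the signal on with genes that damp it. Its count and median do not measure the signal.

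On the interferon side 2 of 6 tested genes were lower in SAE and 1 higher, of 14 in the list, with a median log2 fold of −0.31. Those counts are near the background of 23.9% lower and 23.7% higher and are not a result about the list. The interferon-gamma receptor genes went opposite ways, Ifngr1 at −0.64 ± 0.1 (adjusted p = 6.41e-06, edgeR) and Ifngr2 at 0.38 ± 0.05 (adjusted p = 2.35e-06, edgeR). Stat2, a transcription factor of type I interferon signalling, had 585, 522 and 533 counts in SAE, against 1695, 2108 and 1492 in CTL (−1.71 ± 0.15, adjusted p = 0.000272, edgeR). Irf7 and Irf8, which encode interferon regulatory factors, were at 0 in every library and were not tested.

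**Figure D4:**
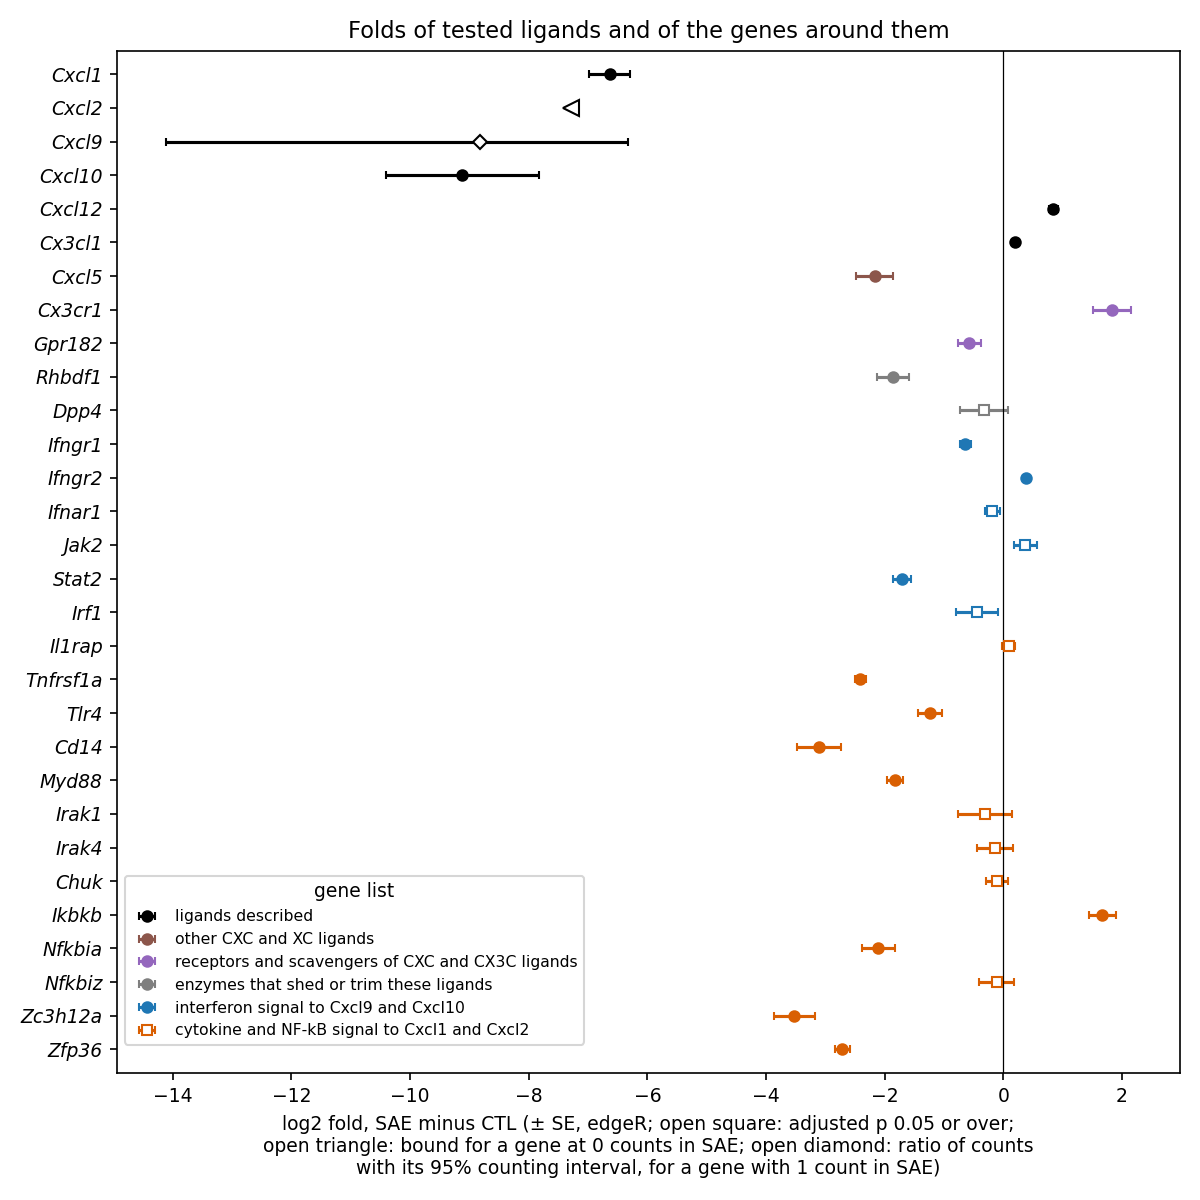
Log2 folds of SAE minus CTL with SE for the 6 tested ligands and the tested genes of 5 lists, where a triangle marks the bound of Cxcl2 and a diamond the count ratio of Cxcl9 with its counting interval. Cxcl1, Cxcl2, Cxcl9 and Cxcl10 lie left of −6, and Cxcl12, Cx3cl1, Cx3cr1, Ifngr2 and Ikbkb are the filled points right of 0.

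The genes most like each ligand over the 9 libraries were named by Pearson's r of log2 CPM among 8479 genes, as a description of points dominated by the difference between groups. For Cxcl10 they were Msn (r = 0.992), Gbp2 (0.991), which encodes an interferon-induced GTPase, and Steap4 (0.99). Cxcl9 was closest to Gm10654 (r = 0.991), Setd1a (0.99) and Tnfrsf1a (0.99). For Cxcl1 they were Psmd13, the interferon-induced gene Mx2 and Gpr22 (r = 0.993 each), and for Cxcl2 Gm30259 (0.997), Psmc1 (0.994) and Ank (0.993). Cxcl12 was closest to Ccm2l (r = 0.996), Thap2 (0.982) and Brip1os (0.981), and Cx3cl1 to Grasp (0.985), 1700047M11Rik (0.984) and AI450353 (0.977).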

How the data were processed

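The authors deposited whole-number counts per RefSeq transcript, 1 column for each library. Salmon and fastp are the tools in the submitters' processing notes, and their versions, index, genome build, strand setting and any rounding are not given there or in the labels. All 120312 rows were named with the RefSeq table of GRCm38.p6 and summed to 38911 symbols. The filter was filterByExpr of edgeR (8213 genes left in the 6 libraries labelled SAE and CTL), the scaling its trimmed mean of M values, and the test its robust quasi-likelihood F test. Benjamini-Hochberg adjustment ran over all tested genes, with calls under 0.05. SEs were derived from F as fold size over its root. CPM levels use factors over all 9 libraries. Floors of 3 counts over a group and 95% intervals of count ratios cover counting error only. No 2 libraries agreed within counting noise.

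In simulated counts of the SAE and CTL comparison on 7950 genes, 86.5% of 96 genes changed 2-fold and 100% of 97 changed 4-fold were recovered, with 10 false calls. The simulation gave every gene the same dispersion and changed few genes, whereas 47.6% of tested genes were called in the data. Its figures check the code and are not error rates of these data. The ligands, gene lists, marker lists and the choice of the 6-library fit were made with earlier results of these data known. Named genes are the 8 ligands, their receptors, up to 4 called members of each list by smallest adjusted p, and the 3 genes most correlated with each tested ligand. Lcn2, Art3, Zmynd15, Cxcl3, Cxcl11, Cxcl13, Pf4, Dpp4, Adam10, Adam17, Irf7, Irf8, Nfkbia, Zc3h12a, Tlr4, Cd14 and the marker genes were named after values were seen. Alternatives were all 9 libraries, other scalings (DESeq2 size factors, upper quartile, totals only), DESeq2's Wald test, limma-voom, other filters, other ways of summing transcripts, replicate number as a block, and each library left out. Fits ran in DESeq2 1.42.0, limma 3.58.1 and edgeR 4.0.16 under R 4.3.3. Tables and plots used scipy 1.17.1, pandas 2.3.3, matplotlib 3.10.9 and numpy 2.4.6 under Python 3.11.15.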

Additional observations from a re-analysis of the deposited data

Results flagged for a closer look

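The libraries labelled CCLF enter no test, and 2 ligand genes stood above the CTL level in all 3 of them. The share of all genes that do so was not counted, so this number is not a result about the ligands. Cxcl12 averaged 94.6 CPM in CCLF, and its lowest CCLF library (86.5 CPM) was above its highest CTL library (78 CPM). Cx3cl1 averaged 1307 CPM in CCLF, and its lowest CCLF library (1216 CPM) was just above its highest CTL library (1205 CPM). Neither difference was tested.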

How the results depend on the processing

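The 6 tested ligands kept their direction in all 17 alternatives each, and 5 kept their call in all. Cxcl1, Cxcl2, Cxcl9 and Cxcl10 passed the filter through their CTL counts, so their direction was fixed in advance and its keeping is not support. Cxcl2 had a log2 fold of −10.5 and an adjusted p of 0.0521 without CTL replicate 1 (edgeR), and the cause was not tested. With each library left out, log2 folds ran from −7.02 to −6.36 for Cxcl1, −10.51 to −9.85 for Cxcl2, −10.25 to −7.93 for Cxcl9, −9.54 to −8.53 for Cxcl10, 0.82 to 0.89 for Cxcl12 and 0.18 to 0.24 for Cx3cl1. Fitted folds of Cxcl2 and Cxcl9 depend on the prior count. Keeping only the most counted transcript gave Cxcl12 a fold of 0.3, that of its 89-residue row. Among other CXC ligands 4 were called with no filter and 2 with a filter of 1 CPM, since more genes were tested, and 1 to 2 with a library left out. For receptors 1 was called with DESeq2's Wald test and 1 to 2 with a library left out, and the cause was not tested. With curated transcripts only, 0 genes of the list of shedding and trimming enzymes were called, since Rhbdf1 was not tested there. Genes called numbered 2991 to 4318 over the alternatives against 3912. The replicate numbers did not pair the libraries (correlations of deviations 0.0264, −0.013 and 0.0227, not every library closest to its own number), and the replicate block called 3892 genes and all 6 ligands. Cxcl14, Cxcl16 and most receptors had too few counts to test, and whether depth or the splitting of counts between rows set this was not tested.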
